A study of Mus musculus with 6 samples.

Results

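Complement genes were followed in cultured mouse astrocytes that had received either a control lentivirus or a lentivirus carrying the Cre recombinase. The group comprised 9 genes, taken by gene symbol from the array platform's annotation: the 3 C1q chains C1qa, C1qb and C1qc, the components C1ra, C3, C4b and Cfb, and the regulators Serping1 and Cd59a. Of these 9, 8 had a probe, 1 each, and all 8 probes passed the filter on dim signal. C3 had no named probe and is not analysed here. The array carried 23473 probes, which named 19321 genes. All cells came from the cortex of C57BL/6J mice at P0 that were Chd7flox/flox, an allele in which Cre removes the flanked part of Chd7, the gene of a chromatin remodeller. The medium of both groups held B-27, EGF, FGF2 and 10% FBS, and RNA was taken 3 days after infection. Each group had 3 arrays, with replicates numbered 1 to 3. The promoter that drove Cre, and whether replicates came from separate cultures or animals, are not stated in the sources used here. The spread between arrays thus cannot be taken as a spread between animals.

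The complement system is a cascade of secreted proteins that tags debris, microbes and, in the brain, synapses for removal. C1q recognises the target and activates the attached proteases C1r and C1s, which cleave C4 and C2; C3 is then cleaved and deposited, with factor B forming the convertase of the alternative pathway, and the late components assemble a membrane pore. In brain tissue the C1q chains are made mainly by microglia, whereas astrocytes and other non-myeloid cells can make C4, C3, C1r and C1 inhibitor. Regulators restrain the cascade in the fluid phase (C1 inhibitor, encoded by Serping1) or on membranes (CD59, encoded by Cd59a, which blocks the pore).

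The 3 C1q chains were lower on every Cre array than on every control array, while the other 5 measured members overlapped between the groups. The mean log2 intensity of the chains was 6.85 ± 0.14 on control arrays and 6.27 ± 0.19 on Cre arrays (SD, n = 3), which is a difference of -0.58 (SE 0.14). The same mean over C1ra, C4b, Cfb, Serping1 and Cd59a was 7.58 ± 0.03 and 7.60 ± 0.02 (SD, n = 3), a difference of 0.02 (SE 0.02). Single members varied more than this mean, with an SE of 0.13 for C1ra, 0.19 for Cd59a and 0.22 for Serping1. Cd59a at 0.23 and C4b at -0.14 offset each other, so the mean does not show each gene to be unchanged. The difference for C1q less that for the other members was -0.60 (SE 0.12), and it was -0.62, -0.83 and -0.35 in the pairs of arrays with the numbers 1, 2 and 3. The members were proposed with the results of this comparison known, so these values are a description and carry no p-value. In limma, 0 of the 8 measured members passed an adjusted p of 0.05, and neither did any other probe (0%, or 0 of 20747 probes; 1160 had an unadjusted p under 0.05). In these bulk samples, fewer cells of a type and less RNA per cell cannot be told apart.

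**Figure D1:**
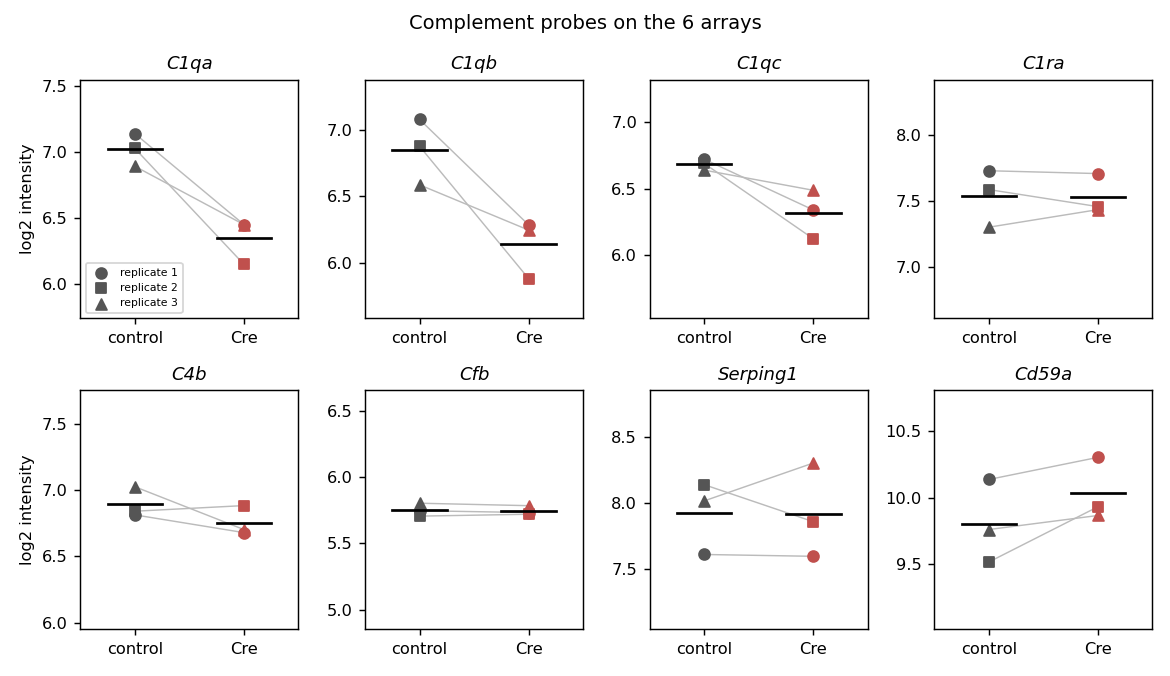
Log2 intensity of each measured complement gene on the 3 control arrays (grey) and 3 Cre arrays (red); bars are group means, grey lines join arrays with the same replicate number, and each panel spans the same range of log2 units. The groups are apart for C1qa, C1qb and C1qc and overlap for the other 5 genes.

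C1q is built from trimers of its A, B and C chains, each with a collagen-like stalk and a globular head that binds the target. C1qa, the A chain (probe M200000131), read 7.14, 7.03 and 6.89 log2 units on control replicates 1, 2 and 3. On the Cre arrays it read 6.45, 6.15 and 6.45. The lowest control array thus stood above the highest Cre array, and the difference was -0.67 (SE 0.11), or 1.59-fold. In the linear values the authors deposited, C1qa stood at 54, 53 and 42 in control and at 22, 11 and 22 in Cre cultures, so that the Cre mean was 36.9% of the control mean. The median difference over probes was itself -0.17 log2 units in those values. C1ra and Serping1 read 89.1% there, a baseline for the percentages of all 3 chains. The log2 values used here include an offset of 50 intensity units added before the logarithm, and the linear values do not.

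C1qb, the B chain (M200000979), read 7.08, 6.88 and 6.59 log2 units in control and 6.29, 5.88 and 6.25 in Cre cultures. It had the largest difference of the 3 chains, -0.71 (SE 0.17), or 1.64-fold, and also the widest spread among control arrays (SD 0.25). Its values in the authors' table were 50, 45 and 28 in control and 17, 5 and 15 in Cre cultures, which left 30.1% of the control mean.

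C1qc, the C chain (M200001340), read 6.72, 6.69 and 6.64 log2 units in control and 6.34, 6.12 and 6.49 in Cre cultures. The control arrays lay close together (SD 0.04) and the Cre arrays were more spread (SD 0.18). The difference was the smallest of the chains, -0.37 (SE 0.10), or 1.29-fold, with 52% of the control mean left in the authors' table (33, 35 and 30 against 18, 10 and 23). Ordered from the most negative difference among the 20747 probes, C1qb stood at place 14, C1qa at 17 and C1qc at 155.

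All 3 chains followed the same order of pairs. The difference was largest in pair 2 (-0.87 for C1qa, -0.999 for C1qb and -0.57 for C1qc), intermediate in pair 1 (-0.69, -0.80 and -0.38) and smallest in pair 3 (-0.44, -0.34 and -0.15). Cre replicate 2 was the lowest array for each chain. That array also had the fewest probes above background of all 6, 83.7% against 87 to 90.7% on the others. Without it, the mean difference of the chains was -0.48. Across all probes, 5.23% were lower on every Cre array than on every control array, a background for the 3 of 3 chains that showed this; the chains were chosen from the same comparison, and nothing is read from the count.

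**Figure D2:**
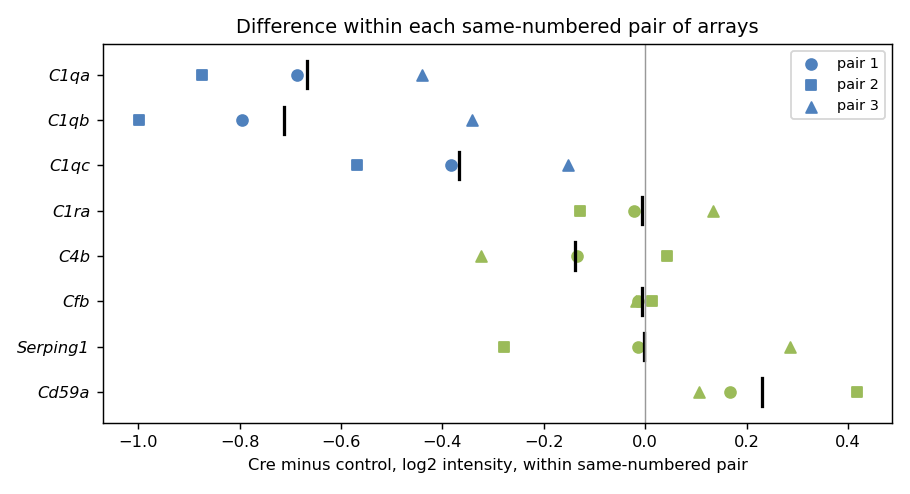
Difference in log2 intensity, Cre minus control, within each pair of arrays that share a replicate number, for the C1q chains (blue) and the other measured members (green); black ticks are the differences of group means. The 9 points of the C1q chains lie between -0.999 and -0.15, and the other members lie on both sides of 0, except Cd59a with 3 points above it.

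The size of the C1q difference depended on how background was handled. The mean difference was -1.34 with plain subtraction of the blank spots, -1.47 in the authors' values and -0.23 with the scanner's local background column. In the authors' values it was -1.30 relative to the median difference over probes, which was -0.17 there. The mean difference of the chains was below 0 under all 13 alternatives run, as was that of each chain, but the count does not measure robustness. The other filters and the replicate block could not change this mean and returned the main value of -0.58. The runs that left out an array reused the remaining arrays and gave -0.66 to -0.48. Median scaling gave -0.575. The settings that changed the processing were thus this scaling and the background settings and authors' values given above.

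Among the other components, C1ra encodes a protease of the C1 complex. Its probe (M400011429) read 7.73, 7.59 and 7.30 log2 units in control and 7.71, 7.46 and 7.43 in Cre cultures. The groups covered the same range, with a difference of -0.01 (SE 0.13). C4b, the gene of component C4 (M300001412), read 6.81, 6.84 and 7.03 in control and 6.68, 6.88 and 6.70 in Cre cultures. Cre replicates 1 and 3 lay below every control array and Cre replicate 2 did not, with a difference of -0.14 (SE 0.08). Cfb, the gene of factor B (M200000230), read 5.75, 5.71 and 5.80 in control and 5.73, 5.72 and 5.78 in Cre cultures, a difference of -0.01 (SE 0.04). Its spots were close to the blanks, at 64.2 to 75.7 intensity units, and 5 of 6 arrays had it above background, Cre replicates accounting for 2 of these. No difference in Cfb was detectable at that signal.

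Of the regulators, Serping1 (M200008133), whose product inactivates C1r and C1s, read 7.61, 8.14 and 8.02 log2 units in control and 7.60, 7.86 and 8.30 in Cre cultures. Replicate 1 was the lowest array of both groups, and the difference was -0.002 (SE 0.22), small against the spread within a group (SD 0.28 and 0.36). Cd59a (M200002712) read 10.14, 9.51 and 9.76 in control and 10.30, 9.93 and 9.87 in Cre cultures. It was higher on the Cre array of each pair, by 0.17, 0.42 and 0.11. The groups overlapped, however, and the difference of 0.23 (SE 0.19) was within their spread (SD 0.31 and 0.24). That SE and spread do not use the pairs. With the local background column the sign turned for all 5 of these members, to -1.37 for Cd59a, 0.54 for Serping1, 0.34 for C1ra, 0.12 for C4b and 0.01 for Cfb. C1ra, C4b and Cd59a have close copies (C1rb, C4a and Cd59b), and how far those bind the same probes was not tested.

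The C1qb, C1qc and Cd59a promoters are shown because C1qb and C1qc were lower together and Cd59a was not. RefSeq's promoter table (GRCm38.p6) held 5 of the 9 members, namely C1qb, C1qc, C1ra, C3 and Cd59a. The 250 bases before each start were searched on both strands for GAGGAA, the purine-rich core bound by the myeloid factor PU.1. Capitals mark that core, which reads TTCCTC on the other strand, as it does in C1qc.
C1qb, chr4:136886201-136886450, minus strand: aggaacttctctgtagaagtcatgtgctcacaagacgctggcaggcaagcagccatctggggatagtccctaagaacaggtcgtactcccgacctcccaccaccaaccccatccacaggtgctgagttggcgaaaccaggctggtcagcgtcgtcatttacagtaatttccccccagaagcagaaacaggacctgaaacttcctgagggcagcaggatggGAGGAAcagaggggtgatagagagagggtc
C1qc, chr4:136892915-136893164, minus strand: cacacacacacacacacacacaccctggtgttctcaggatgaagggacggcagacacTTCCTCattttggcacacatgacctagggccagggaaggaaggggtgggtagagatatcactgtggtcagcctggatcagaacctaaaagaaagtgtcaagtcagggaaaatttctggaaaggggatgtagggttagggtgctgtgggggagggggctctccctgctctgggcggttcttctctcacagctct
Cd59a, chr2:104095551-104095800, plus strand: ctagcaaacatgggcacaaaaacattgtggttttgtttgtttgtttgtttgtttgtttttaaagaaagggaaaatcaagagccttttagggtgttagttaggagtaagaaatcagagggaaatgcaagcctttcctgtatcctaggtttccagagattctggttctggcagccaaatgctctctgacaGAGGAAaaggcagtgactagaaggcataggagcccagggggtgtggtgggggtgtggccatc
The core was found 1 time in each of these 3 windows and in none of C1ra and C3. It begins 30 bases before the start of C1qb, 193 before that of C1qc and 62 before that of Cd59a. It occurs in 23.3% of the 32851 promoter windows of the same length in the table. The gamma-activated site, the element of interferon gamma signalling, was searched as TTCNNNGAA on both strands and was found in none of the 5 and in 7.0% of all windows. A match describes the letters and is no evidence of binding.

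The rest of the complement system was read from a list of 48 genes outside the 9, of which 43 had a probe and 35 a probe that passed the filter. None of the 35 passed in limma (0%, as for all probes), and 1 had an unadjusted p under 0.05, against 5.59% of all probes (2.82% lower and 2.77% higher in Cre cultures). In number, 20 were lower and 15 higher in Cre cultures, with a median of -0.01 log2 units beside -0.0001 over all 17285 genes measured. Genes that start the cascade (11 measured, 8 lower and 3 higher) included Cfp, which encodes properdin, a stabiliser of the alternative convertase released by myeloid cells. Cfp was the gene with the unadjusted p under 0.05, at 6.25 ± 0.07 on control arrays and 6.12 ± 0.05 on Cre arrays (SD, n = 3), or -0.13 (SE 0.05; limma adjusted p = 0.888). The protease gene Masp1 of the lectin pathway stood at 0.15 (SE 0.08; limma adjusted p = 0.993). C1rl stood at -0.10, C4a at -0.04, C1s2 at 0.07 and Colec11 at 0.02.

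The genes of the membrane pore and its precursors numbered 6 measured, with differences from -0.06 (Hc, which encodes C5) to 0.03 (C8a). C8b and C9 lay close to background at 5.71 and 5.88 log2 units in control cultures and differed by 0.02 each, and C8g by -0.02. Among receptors (7 measured), C3ar1, the receptor for the C3a fragment found on myeloid cells, read 6.47 ± 0.30 on control arrays and 6.11 ± 0.23 on Cre arrays (SD, n = 3). Its difference of -0.35 (SE 0.18) did not pass and the groups overlapped (limma adjusted p = 0.982). In the authors' values its Cre mean was 47.2% of the control mean, beside 52% for C1qc. C1qbp, a mainly mitochondrial protein that also binds the C1q head, differed by -0.26 (SE 0.12; limma adjusted p = 0.944) and the integrin chain gene Itgax by -0.07. Itgb2, the beta chain of complement receptors 3 and 4, stood higher at 0.14 (SE 0.05; limma adjusted p = 0.9). Cd93 and C5ar2 stood at 0.06 and 0.02. The alpha chain gene of receptor 3, Itgam, was above background on 0 arrays. Of 11 measured regulators, 7 were lower and 4 higher, none by more than 0.15. Those with the smallest unadjusted p in either direction were Csmd1 at -0.10, Cfi at -0.05 and Cd46 at -0.04, and Cd59b at 0.05, Susd4 at 0.06 and Csmd2 at 0.11. The differences furthest from 0, named after their values were seen, were those of Cr1l at -0.15 (SE 0.16) and Clu at 0.14 (SE 0.45), both within their standard errors.

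**Figure D3:**
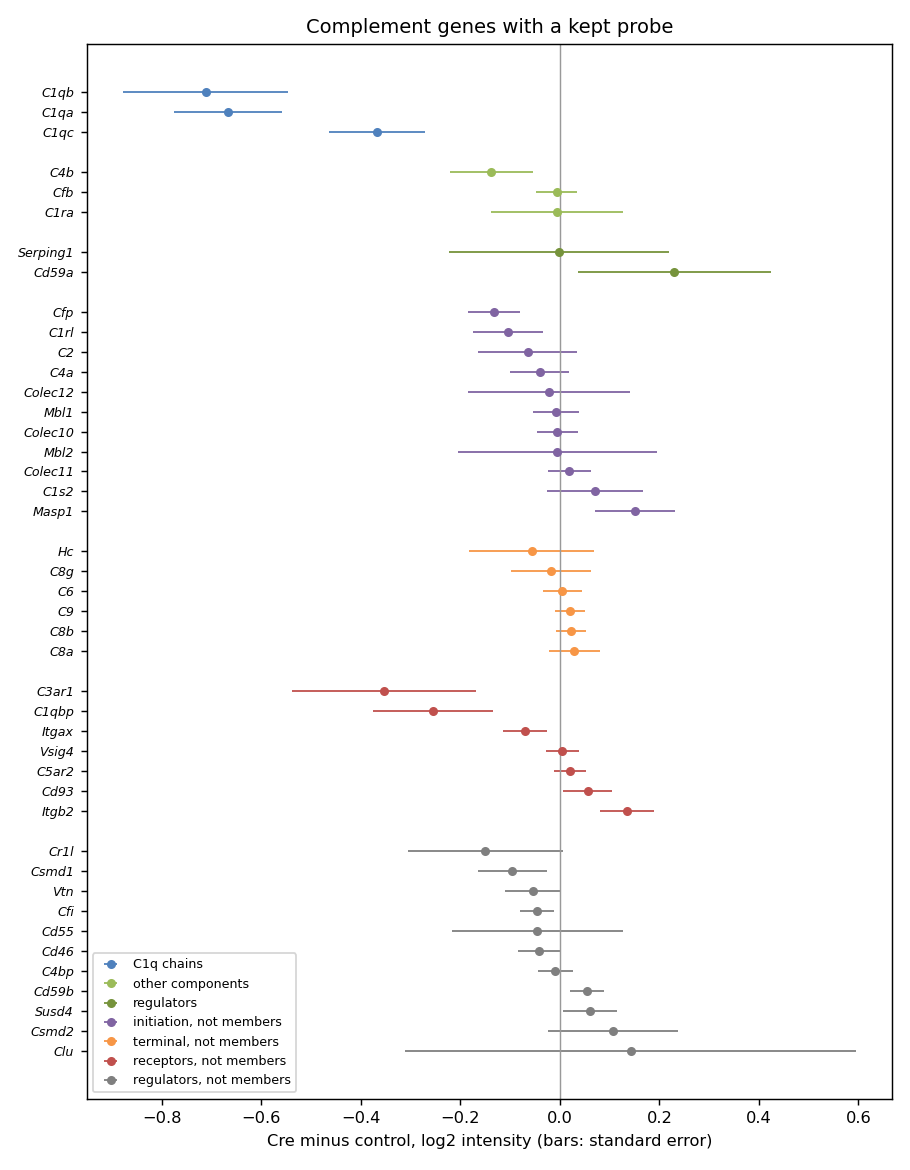
Difference in log2 intensity, Cre minus control, for the 43 complement genes with a probe that passed the filter, by role; bars are standard errors from limma. On this log2 scale, which includes the offset, the C1q chains lie furthest below 0, from -0.71 to -0.37, and C3ar1 follows at -0.35.

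Markers of the cells that a cortical astrocyte culture can hold were read beside these values. All 20 astrocyte markers were above background on all 6 arrays, and 18 were higher and 2 lower in Cre cultures (median 0.21). Their summed level in the authors' table was 7041 to 12703 in control and 9293 to 11485 in Cre cultures. Microglia markers other than C1q were mostly dim: of 22, 21 had a probe, 19 passed the filter and 14 were above background on all 6 arrays. Of the 19, 15 were lower and 4 higher, with a median of -0.11 beside -0.0001 for all genes, and with medians of -0.13, -0.15 and -0.02 in pairs 1, 2 and 3. Their summed level was 426 to 480 in control and 339 to 432 in Cre cultures, with empty cells taken as 0. Cd68, which was higher in Cre cultures, made up 121 to 134 of it in control and 156 to 193 in Cre cultures. The median difference over probes in the authors' table was -0.17 log2 units, which bears on the astrocyte sum too. Itgam and Gpr34 were above background on 0 arrays. Of these 19, 6 were lower on every Cre array than on every control array and 2 were higher on every one, against 5.23% and 5.22% of all probes.

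The microglia markers did not lie together. Tyrobp, a signalling adaptor, differed by -0.26 (SE 0.06; limma adjusted p = 0.583) and Ly86 by -0.16 (SE 0.04; limma adjusted p = 0.705). The lysosomal Cd68 went the other way at 0.48 (SE 0.08; limma adjusted p = 0.403). Of further markers, named after their values were seen, Ctss differed by -0.47, Fcer1g by -0.31, Fcgr3 by -0.26 and Fcrls by -0.25. Aif1 stood at -0.17, Cx3cr1 and Trem2 at -0.11 each and Laptm5 at -0.10. Csf1r stood at 0.09, P2ry12 at 0.04, Ptprc at 0.01 and Spi1, which encodes PU.1, at -0.003. P2ry12 and Ptprc lay close to background, at 5.88 and 5.74 log2 units in control cultures, which limits the fall they could show. Ly86 and Cx3cr1, which were lower, also lay close to background, at 5.92 and 5.93. P2ry12 was higher on every Cre array than on every control array. Of the 19 markers measured, 15 were lower and 4 higher. The offset in the log2 values shrinks the differences of dim probes. In the authors' values, which lack it, the Cre mean was 38.8% of the control mean for Ctss, 40% for Fcrls and 44.9% for Fcgr3. The chains stood there at 36.9% (C1qa), 30.1% (C1qb) and 52% (C1qc). Other markers stood at 58% (Tyrobp), 73.6% (Aif1), 103% (Csf1r), 106% (P2ry12) and 133% (Cd68). The part of microglia number or state in the C1q values was not tested.

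Markers of other cells had medians of -0.06 for fibroblasts and mural cells (14 measured, 6 higher and 8 lower), 0.02 for endothelium (8 measured, 5 higher and 3 lower), -0.02 for oligodendrocytes (9 measured, 3 higher and 6 lower) and 0.02 for neurons (10 measured, 6 higher and 4 lower). Some fibroblast and mural markers, named after their values were seen, differed widely between replicates. Mgp read 11.82, 7.48 and 10.46 log2 units in control and 11.20, 7.05 and 9.63 in Cre cultures. Col1a2 and Col3a1 were also lowest on replicate 2 of both groups, and Pdgfrb and Acta2 were not. Among neuron markers, 3 were higher and 1 lower on every Cre array, against 5.22% and 5.23% of all probes. Neurod1 stood at 0.46 (SE 0.07, limma adjusted p = 0.402) and Nefm at 0.39 (SE 0.07, limma adjusted p = 0.534). Nefl stood at 0.16 (SE 0.05, limma adjusted p = 0.778). The 4 lower ones, named after their values were seen, were Stmn2, Syt1, Map2 and Snap25. Stmn2, the marker lower on every Cre array, stood at -0.34 (SE 0.12, limma adjusted p = 0.8045). Syt1 stood at -0.17, Map2 at -0.11 and Snap25 at -0.07. Genes of the interferon response, a signal known to induce Serping1, C4b, C1ra and Cfb, had a median of -0.14, with 17 of 21 lower. Their median differed in sign between pairs, at -0.32, 0.19 and -0.25. Rtp4 stood at -0.41 (SE 0.15; limma adjusted p = 0.841), Tap1 at 0.16 (SE 0.06; limma adjusted p = 0.919) and the GTPase gene Iigp1 at -0.60 (SE 0.32; limma adjusted p = 0.99).

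**Figure D4:**
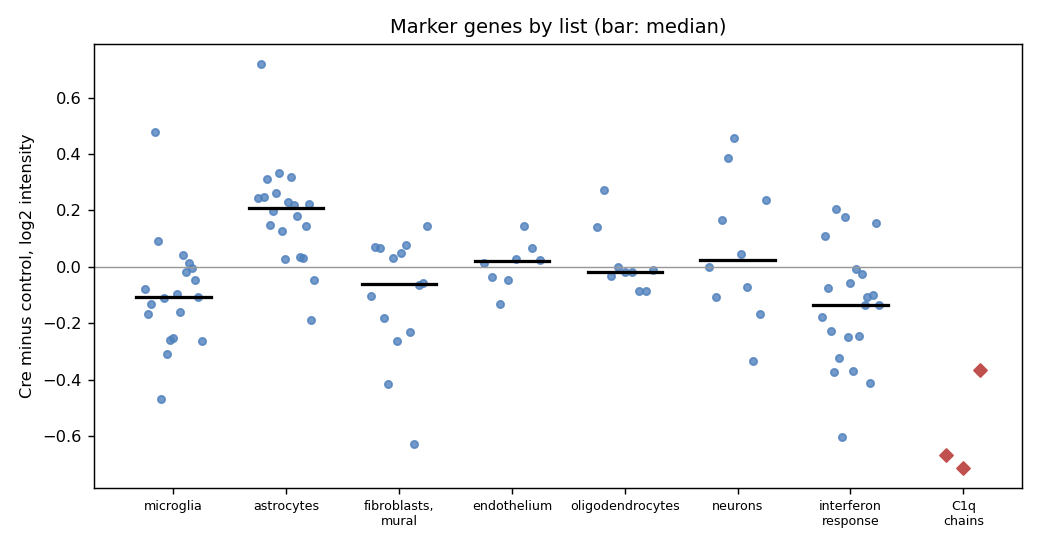
Difference in log2 intensity, Cre minus control, for marker genes of each cell type and for interferon response genes (blue points, 1 per gene; black bars, medians), with the 3 C1q chains as red diamonds. The microglia median is -0.11 and the astrocyte median 0.21, and each C1q chain lies below the microglia median. The offset in the log2 values shrinks the differences of dim probes.

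The genes with the profile most like C1q over the 6 arrays were found by the root mean square distance, in log2 units, between each gene's profile and the mean profile of the 3 chains, each centred on its own mean. The chains themselves stood at 0.05 (C1qa), 0.10 (C1qb) and 0.13 (C1qc) from that mean. Each chain is part of the mean, which makes its own distance smaller, so nothing is read from these. The median of the other 17258 genes, members left out, was 0.33. The nearest was Ctss at 0.07, the gene of the lysosomal protease cathepsin S and one of the microglia markers above. Then came Fbln5 at 0.11, a matrix protein gene, Fibin at 0.11, the mitochondrial methyltransferase gene Mettl15 at 0.13, Cops3 of the COP9 signalosome at 0.13 and the ribosomal protein gene Rpl27a at 0.13. Ctss differed by -0.47 (SE 0.13), Fbln5 by -0.54 (SE 0.13) and Fibin by -0.61 (SE 0.09). The likeness is a description over 6 arrays that share the 2 groups.

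The targeted gene, Chd7, was lower in the Cre cultures by the brighter of its 2 probes. That probe had linear values in the authors' table of 59 ± 26.1 for control and 7.67 ± 0.577 for Cre arrays (SD, n = 3). In log2 units it differed by -1.13 (SE 0.16, limma adjusted p = 0.402), with the groups apart. The dimmer probe read 12.7 ± 1.53 and 8.67 ± 2.52 (SD, n = 3) in the same table. It differed by -0.11 log2 units (SE 0.06, limma adjusted p = 0.999), and the groups overlapped. The sources used here do not say whether either probe lies in the part that Cre removes. Cre was present only where Chd7 was targeted, so the recombinase and the loss of Chd7 cannot be told apart. Between 83.7 and 90.7% of probes were above background on an array. Precision is limited by having 3 arrays a group.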

How the data were processed

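Per the labels' protocols, total RNA was amplified with aminoallyl nucleotides and labelled with Cy5 for 1-colour arrays. The scanner files the authors deposited give a median intensity per spot and a local background intensity, not subtracted, per the file headers. The authors also deposited a table of linear intensity values; set against the scanner files, each column was the spot median less the blank mean, divided by 1 factor per array (1.44 to 1.94), with a median of 25. The choice of factors and any other step are not stated in the sources used here. No genome build is named in the files.

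Probe symbols came from the platform annotation, checked by Entrez identifier in the GRCm38.p6 table of RefSeq: of 23473 probes 20690 had 1 symbol, 0 had several and 2783 were unnamed; 20556 matched and 0 symbols changed. Per array, 0 to 9 spots with a scanner mark were dropped. Intensities were corrected by normexp against 2736 blank spots (limma 3.58.1 in R 4.3.3, nec, offset 50), log2 transformed and quantile normalised. A probe was above background where it exceeded the blank mean by 2 SD, and 20747 probes that did so on at least 3 of 6 arrays were kept. The brightest kept probe stood for a gene.

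Testing used limma's lmFit and eBayes (two-sided, Benjamini-Hochberg over the 20747 probes, threshold 0.05), and was checked on simulated data. SE values of single genes are limma's, and those of means over members come from the spread of 3 arrays a group. Neither uses the pairs of same-numbered arrays. With 3 arrays a group the smallest exact permutation p is 0.1, and no such test was run. Replicate numbers are shared by the groups, and same-numbered arrays deviated together from their group means (r of 0.498, 0.425 and 0.436 over probes), which was taken as pairing; the labels state no shared litter, culture or day. Alternatives were a replicate block, plain subtraction, the local background column, median scaling, the authors' table, 2 other filters and leaving out each array.

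The members and gene lists were chosen with earlier results of these data known. Named genes were every member and the 6 genes nearest to C1q in profile. Of each other complement list, up to 3 per direction were named by unadjusted p. Of each further list, up to 3 with the smallest p were chosen, and they are given for the microglia, neuron and interferon lists. The mean over non-C1q members had been planned for 6 genes and covers 5, since C3 has no named probe.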

Additional observations from a re-analysis of the deposited data

How the results depend on the processing

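Several background settings were known from earlier results of these data. The mean difference of the C1q chains (-0.58) became -1.34 when the blank mean was subtracted plainly, -1.47 in the table of the authors and -0.23 when the local background was used. The mean difference of the other members (0.02) was -0.073 with the local background column, -0.016 with median scaling and -0.17 in the authors' values. There, Cfb was left out for an empty cell, and the median difference over probes was -0.17 too. C1q less the other members (-0.60) was -1.34 with plain subtraction, -0.16 with the local background and -1.30 in the authors' values. The cause was not tested. With 1 array left out, these 3 values ranged from -0.66 to -0.48, from 0.004 to 0.03 and from -0.68 to -0.51. The count of probes with an adjusted p under 0.05 was 0 under all 13 alternatives, as was that of other complement genes. With the replicate number as a block it was 0 too, and the differences were the same (-0.58, 0.02 and -0.60), as the design is balanced; the block changed no other call. The signal over background limits Cfb and the dimmer microglia markers, whose values lie close to the blanks. The C1q chains were above background on all 6 arrays but dim on the Cre arrays. There they read 5 to 23 in the authors' values, beside an array median of 25.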

Other observations

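By position, C1qb, C1qc and C1qa are successive protein-coding genes of chromosome 4 in RefSeq's table for GRCm38.p6. The next 2 protein-coding genes beyond C1qa, chosen by place and not by value, were Epha8, an ephrin receptor gene, at -0.04 (SE 0.04; limma adjusted p = 0.999) and the zinc finger gene Zbtb40 at -0.03 (SE 0.04; limma adjusted p = 0.999). On the C1qb side no neighbour had a kept probe. C4b and Cfb lie on chromosome 17, where Cfb is followed by the complement gene C2 at -0.06 (SE 0.10; limma adjusted p = 0.999) and preceded by Nelfe at -0.10 (SE 0.05; limma adjusted p = 0.945). Beside C4b, Tnxb stood at -0.02, Atf6b at -0.08 and Stk19 at -0.04, none of which passed.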
